A study of Homo sapiens with 9 samples.

Results

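The genes described here encode subunits of the Polycomb repressive complexes. They were the 10 rows, of 61806 gene identifiers, whose Ensembl identifier maps to EZH2, EZH1, SUZ12, EED, RBBP4, RBBP7, JARID2, BMI1, RING1 or CBX2. All 10 passed the filter on low counts. RNA-seq was performed on HCT116, an established human colorectal cancer cell line grown in McCoy's 5A medium. The cells received, with the lipid reagent Lipofectamine RNAiMax, a control siRNA or 1 of 2 siRNAs against ORM1, which encodes the plasma protein orosomucoid 1, and each group held 3 libraries. All libraries carry the batch value Day 3. The labels do not say that the libraries of a group came from separate cultures, so the p-values reflect the spread between libraries only, and that spread may be technical.

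Polycomb proteins keep genes silent by marking histones. Polycomb repressive complex 2 (PRC2) methylates lysine 27 of histone H3 through its catalytic subunit EZH2, or its less active paralogue EZH1, held in a core with SUZ12 and EED and with the histone-binding proteins RBBP4 or RBBP7, while JARID2 is an accessory subunit that helps to bring PRC2 to chromatin. Polycomb repressive complex 1 (PRC1) ubiquitinates histone H2A through RING1 or RNF2 paired with a PCGF protein such as BMI1, and its canonical form carries a CBX protein such as CBX2 that reads the PRC2 mark. EZH2 is often highly expressed in colorectal and other cancers and in dividing cells generally.

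The libraries held 60698684 to 71431723 counts, and mitochondrially encoded genes took 8.02% to 8.62% of them. The targeted gene ORM1 had 63, 56 and 59 counts in the control libraries, against 0, 0 and 5 with siRNA 1 and 8, 0 and 12 with siRNA 2, so the siRNA libraries all lay below control. The log2 change of ORM1 was -5.09 (SE 1.06, edgeR adjusted p = 0.00287) under siRNA 1 and -3.20 (SE 0.90, adjusted p = 0.019) under siRNA 2. The siRNA 1 value of ORM1 rests on few counts, and it was -8.92 without siRNA 1 replicate 3 and -4.52 without siRNA 1 replicate 2, with the call kept. The siRNA 2 call of ORM1 was lost, with adjusted p = 0.05 to 0.057 and log2 changes of -3.38 to -3.17, without control replicate 1, 2 or 3 or without siRNA 2 replicate 1. Of 8 markers of colon epithelium, EPCAM, CDH1, KRT8, KRT18, KRT19 and CDX2 were present, while CDX1 had 0 counts in every library and VIL1 was at or near 0. The summed epithelial markers were 4202.5 to 4498.6 CPM (counts per 1000000 after TMM scaling) in control, 3555.3 to 3726.9 under siRNA 1 and 3599.7 to 3798.8 under siRNA 2. Most of that sum was KRT8, KRT18 and KRT19, which fell in the mean of both siRNAs, while EPCAM stood at 139.7% and 133.4% of control and CDH1 at 162.6% and 107.2% under siRNA 1 and siRNA 2. The summed 8 markers of leukocytes, endothelium and fibroblasts were 51.4 to 59.4, 47.6 to 49.7 and 41 to 44.5 CPM in these groups, nearly all of it COL1A1, with PTPRC at or near 0. The part of these shifts in the results below was not tested.

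Promoter sequences are shown for EZH2, RBBP4, RBBP7 and JARID2, the genes with called changes whose upstream sequence was at hand, because their transcript levels moved with different siRNAs. Each line gives the 250 bases before the gene's furthest upstream start in RefSeq on GRCh38.p14, 5′ to 3′ on the strand of the gene. The window was chr7:148884292-148884541 (minus strand) for EZH2, chr1:32650958-32651207 (plus) for RBBP4, chrX:16870363-16870612 (minus) for RBBP7 and chr6:15245819-15246068 (plus) for JARID2. Capitals mark CCAAT on either strand, which reads ATTGG on the other, the box bound by the factor NF-Y.
EZH2: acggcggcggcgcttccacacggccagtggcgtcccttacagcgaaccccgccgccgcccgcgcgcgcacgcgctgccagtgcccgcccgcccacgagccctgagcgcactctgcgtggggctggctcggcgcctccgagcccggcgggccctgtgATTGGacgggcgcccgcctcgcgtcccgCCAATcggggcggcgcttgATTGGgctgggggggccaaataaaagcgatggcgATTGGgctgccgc
RBBP4: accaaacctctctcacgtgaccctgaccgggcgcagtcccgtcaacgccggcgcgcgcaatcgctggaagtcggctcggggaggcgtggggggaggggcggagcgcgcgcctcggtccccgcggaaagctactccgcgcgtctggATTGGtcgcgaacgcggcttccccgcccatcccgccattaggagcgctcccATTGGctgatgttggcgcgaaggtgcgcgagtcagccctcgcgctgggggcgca
RBBP7: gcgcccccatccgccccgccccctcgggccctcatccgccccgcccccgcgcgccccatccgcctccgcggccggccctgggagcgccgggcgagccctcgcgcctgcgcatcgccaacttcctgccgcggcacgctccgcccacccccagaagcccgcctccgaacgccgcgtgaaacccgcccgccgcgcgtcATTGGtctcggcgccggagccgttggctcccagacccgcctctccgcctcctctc
JARID2: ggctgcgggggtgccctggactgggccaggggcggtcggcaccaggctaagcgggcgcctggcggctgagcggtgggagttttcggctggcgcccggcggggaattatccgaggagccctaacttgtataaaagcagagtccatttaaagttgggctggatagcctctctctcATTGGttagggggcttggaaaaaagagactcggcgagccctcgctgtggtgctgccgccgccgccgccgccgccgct

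Of the 10 genes, 9 had a RefSeq window. EZH2 held 4 CCAAT boxes, at 94, 66, 47 and 13 bases before the start. RBBP4 held 2, at 105 and 54 bases, RBBP7 held 1 at 55 bases and JARID2 held 1 at 77 bases. Among 27305 promoter windows of 250 bases, 33% held at least 1 such box, 10% at least 2 and 0.916% at least 4. SUZ12 and EED held 1 box each, and EZH1, BMI1 and RING1 held none. A search on both strands for TTTCCCGC, TTTGGCGC, TTTCGCGC and TTTGCCGC, words bound by E2F factors, found 1 match in SUZ12 and 1 in EZH1, against 2.78% of all windows with a match. The RefSeq starts differ from those of the GENCODE 29 annotation, and some windows reach into the GENCODE 29 gene. The EZH2 box at 13 bases, the RBBP4 box at 54 bases and the EED box lie inside that span. The RBBP7 box at 55 bases crosses its edge. These matches describe letters in the windows only.

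In control cells the 10 genes lay between the 68.2 and 96.4 percentiles of the CPM of tested genes, with EED lowest and RBBP4 highest. Per kilobase of exon, which allows genes to be compared, BMI1 had the highest level in control at 27.7 ± 1.12 CPM per kb (SD, n = 3). It was followed by EZH2 at 26.8 ± 0.469 and RING1 at 25.8 ± 0.762 CPM per kb, and each of these neighbours overlapped over libraries. RBBP7 at 22.5, RBBP4 at 21.9 and SUZ12 at 16.9 CPM per kb came next. JARID2 at 10.4, CBX2 at 8.68, EZH1 at 5.04 and EED at 4.44 CPM per kb were lowest. With the longest transcript as the length, RBBP7 was first at 41.2, EED moved up to 11.3 and EZH1 was last at 7.61 CPM per kb, so the order holds only for the exon lengths of GENCODE 29 used. The level of EZH2 per kb was 5.32 ± 0.213 times that of EZH1 in control.

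**Figure D1:**
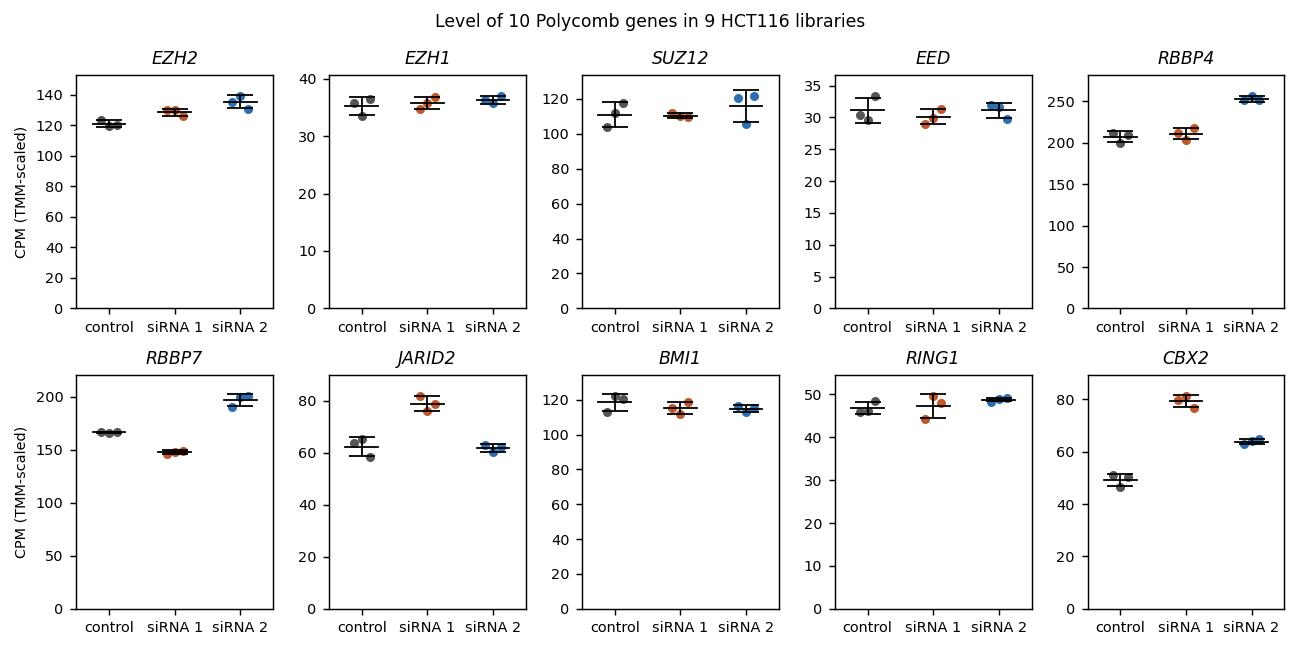
Level of each of the 10 Polycomb genes in CPM (TMM-scaled, y axis from 0, own scale per gene) in the control, siRNA 1 and siRNA 2 libraries. Points are libraries, and the bars give the mean and SD of 3. CBX2 was 46.6 to 51 CPM in control and 76.9 to 81.3 under siRNA 1, while RBBP7 was at 145.4 to 148.8 under siRNA 1 and 190.3 to 200.4 under siRNA 2.

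The question was which Polycomb genes differed after ORM1 knockdown, and whether both siRNAs gave the same change. Under siRNA 1, JARID2 and CBX2 rose and RBBP7 fell, which is 3 of 10 genes, while 30.5% of all tested genes were called (edgeR, adjusted p below 0.05), 15.7% higher and 14.8% lower. Under siRNA 2, EZH2, RBBP4, RBBP7 and CBX2 rose and none fell, so 4 of 10 were called beside 26.7% of all tested genes, 14.2% higher and 12.6% lower. In the mean of both siRNAs, EZH2, RBBP4, JARID2 and CBX2 rose and none fell, which is 4 of 10 beside 31.5% of all tested genes, 16.2% higher and 15.3% lower. Between the siRNAs, JARID2 and CBX2 were higher and RBBP4 and RBBP7 lower under siRNA 1, so that 4 of 10 were called beside 17.9% of all tested genes, 8.09% higher and 9.83% lower. The share of these genes called under siRNA 1 and in the mean was thus near that of all genes. The median log2 change in the mean of both siRNAs was 0.035 over the 10 genes and -0.000 over all tested genes. Both siRNA comparisons share the 3 control libraries, so their values are not independent. In bulk RNA, fewer cells of a kind and less RNA per cell cannot be told apart.

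**Figure D2:**
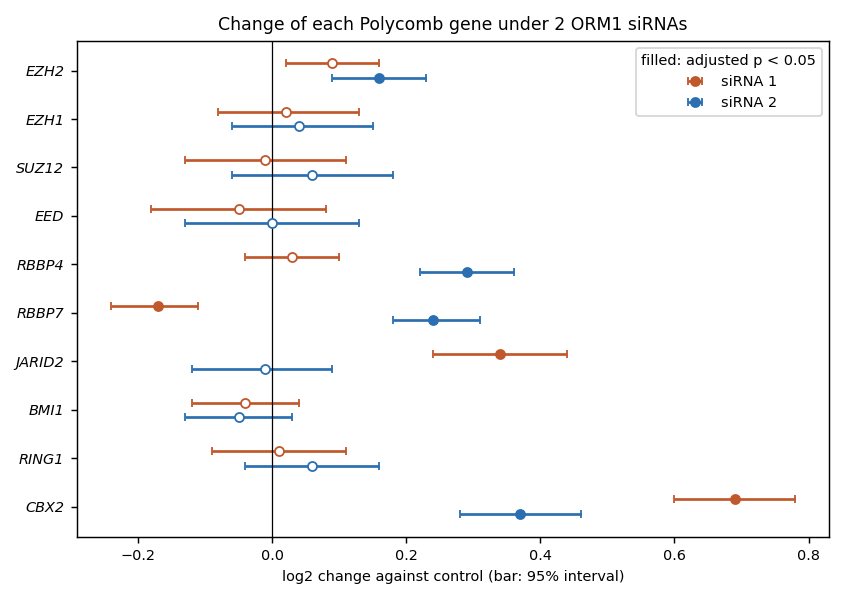
Log2 change of each Polycomb gene against control (x axis) under each ORM1 siRNA, with 95% intervals; filled points passed edgeR's adjusted p of 0.05. CBX2 was 0.69 under siRNA 1 and 0.37 under siRNA 2, and RBBP7 lay at -0.17 and 0.24.

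CBX2, the chromodomain subunit of canonical PRC1, rose with both siRNAs, and its change was the largest of the 10 genes in the mean of both. CBX2 (ENSG00000173894) is a protein-coding gene that spans 79778132 to 79787983 of chromosome 17 (plus strand) on GRCh38, by its GENCODE 29 record. Its level was 51, 46.6 and 50.4 CPM in control, 79.8, 81.3 and 76.9 with siRNA 1, and 62.9, 64.1 and 64.8 with siRNA 2. The 3 groups did not overlap, with siRNA 1 highest and siRNA 2 between it and control. CBX2 thus stood at 160.8% of control under siRNA 1 (log2 0.69, SE 0.04, edgeR adjusted p = 1.76e-07) and 129.5% under siRNA 2 (0.37, SE 0.04, adjusted p = 3.61e-05). The difference between the siRNAs was 0.31 on the log2 scale (SE 0.04, adjusted p = 0.00026).

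Other CBX proteins can take the place of CBX2 in canonical PRC1. CBX7 had 24.9 ± 0.253 CPM (SD, n = 3) in control, 34.5 ± 2.97 under siRNA 1 and 28.3 ± 1.94 under siRNA 2. CBX6 had 130.7 ± 8.33, 157.4 ± 1.77 and 150.5 ± 7.09 CPM in the same order. CBX7 and CBX6 rose in the mean of both siRNAs, with log2 changes of 0.33 (SE 0.06, edgeR adjusted p = 0.00134) and 0.24 (SE 0.04, adjusted p = 0.000674). For CBX7 the change was 0.47 (adjusted p = 0.000277) under siRNA 1 but 0.19 and not called (adjusted p = 0.0723) under siRNA 2. The siRNAs differed by 0.29 for CBX7 (SE 0.07, adjusted p = 0.0141), so its mean averages unlike values. CBX8, named after its values were seen, fell by 0.17 (adjusted p = 0.0442). The CBX8 call was lost, with log2 changes of -0.18 to -0.12, without control replicate 2 or 3, siRNA 1 replicate 1 or 3, or siRNA 2 replicate 1 or 3.

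JARID2, the PRC2 accessory subunit, rose under siRNA 1. JARID2 (ENSG00000008083) spans 15246296 to 15522040 of chromosome 6 (plus strand) on GRCh38. Its level was 63.7, 65.3 and 58.3 CPM in control, 81.8, 76 and 78.9 with siRNA 1, and 63, 60.3 and 62.1 with siRNA 2. All siRNA 1 libraries lay above the rest, while control and siRNA 2 overlapped. The log2 change of JARID2 was 0.34 (SE 0.05, edgeR adjusted p = 0.000136) under siRNA 1 and -0.01 (95% interval -0.12 to 0.09, adjusted p = 0.865) under siRNA 2. The siRNAs differed by 0.35 on the log2 scale (SE 0.05, adjusted p = 0.000248), and the JARID2 call in the mean of both (0.16, adjusted p = 0.00806) thus averages unlike values.

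RBBP4 and RBBP7 are close paralogues that chaperone histones and serve PRC2 and several other chromatin complexes, and both were higher under siRNA 2 than under siRNA 1. On GRCh38, RBBP4 (ENSG00000162521) spans 32651142 to 32686211 of chromosome 1 (plus strand) and RBBP7 (ENSG00000102054) spans 16839283 to 16870414 of chromosome X (minus strand). RBBP4 stood at 211.9, 199.8 and 209.7 CPM in control, 212.2, 203.6 and 217.2 with siRNA 1, and 251.0, 256.6 and 251.1 with siRNA 2. The siRNA 2 libraries were above all others, and control and siRNA 1 overlapped. RBBP4 rose under siRNA 2 (log2 0.29, SE 0.03, edgeR adjusted p = 4.27e-05), while under siRNA 1 its change was 0.03 (95% interval -0.04 to 0.10, adjusted p = 0.606).

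RBBP7 went in opposite directions under the siRNAs. Its level was 166.3, 165.4 and 166.9 CPM in control, 145.4, 148.0 and 148.8 with siRNA 1, and 190.3, 199.3 and 200.4 with siRNA 2. The 3 groups were separate, with siRNA 1 lowest and siRNA 2 highest. RBBP7 fell by 0.17 on the log2 scale under siRNA 1 (SE 0.03, edgeR adjusted p = 0.000595) and rose by 0.24 under siRNA 2 (SE 0.03, adjusted p = 5.58e-05), a difference of -0.42 for siRNA 1 against siRNA 2 (SE 0.03, adjusted p = 1.62e-06). In the mean of both siRNAs RBBP7 was 0.03 (95% interval -0.02 to 0.09, adjusted p = 0.339). The ratio of RBBP4 to RBBP7 per kb was 0.973 ± 0.0267 (SD, n = 3) in control, 1.12 ± 0.0376 under siRNA 1 and 1 ± 0.0259 under siRNA 2.

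EZH2, the catalytic subunit, rose in the mean of both siRNAs and under siRNA 2. EZH2 (ENSG00000106462) spans 148807383 to 148884321 of chromosome 7 (minus strand) on GRCh38. Its level was 123.4, 119.6 and 119.9 CPM in control, 129.6, 130.1 and 125.9 with siRNA 1, and 135.4, 139.2 and 130.8 with siRNA 2. All 6 siRNA libraries lay above all control libraries, and the siRNA groups did not overlap each other. The log2 change of EZH2 was 0.16 (SE 0.03, edgeR adjusted p = 0.00252) under siRNA 2, 0.12 (SE 0.03, adjusted p = 0.00435) in the mean and 0.09 (SE 0.03, 95% interval 0.02 to 0.16, adjusted p = 0.0564) under siRNA 1. The difference between the siRNAs was -0.07 (adjusted p = 0.153). EZH2 under siRNA 1 passed the threshold with upper-quartile scaling (0.10, adjusted p = 0.038). The ratio of EZH2 to EZH1 per kb was 5.32 ± 0.213, 5.56 ± 0.25 and 5.76 ± 0.286 in control, siRNA 1 and siRNA 2, and these overlapped.

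The other PRC2 core subunits, SUZ12, EED and EZH1, and the PRC1 subunits BMI1 and RING1 did not pass the test with either siRNA. EZH1 ranged from 33.5 to 36.4 CPM in control and 34.7 to 37 in the siRNA libraries, with a log2 change of 0.02 (95% interval -0.08 to 0.13) under siRNA 1 and 0.04 (-0.06 to 0.15) under siRNA 2. SUZ12, the scaffold of the core, ranged from 103.5 to 117.2 CPM in control, 109.3 to 111.7 under siRNA 1 and 105.2 to 121.6 under siRNA 2, and its intervals were -0.13 to 0.11 and -0.06 to 0.18. EED, which binds the PRC2 mark, was at 31.1 ± 2.01, 30.1 ± 1.18 and 31.1 ± 1.18 CPM (SD, n = 3), with intervals of -0.18 to 0.08 and -0.13 to 0.13.

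The PCGF protein BMI1 had 118.6 ± 4.81, 115.4 ± 3.36 and 114.9 ± 1.92 CPM (SD, n = 3) in control, siRNA 1 and siRNA 2, with log2 intervals of -0.12 to 0.04 and -0.13 to 0.03. RING1, the ubiquitin ligase subunit, had 46.9 ± 1.39, 47.3 ± 2.72 and 48.8 ± 0.451 CPM, with intervals of -0.09 to 0.11 and -0.04 to 0.16. The groups overlapped for all 5 of EZH1, SUZ12, EED, BMI1 and RING1. A p above the threshold does not show equal levels, and the intervals give the sizes that these libraries leave possible. BMI1 made up 36.2% ± 1.26 (SD, n = 3) of the summed CPM per kb of 6 PCGF genes in control, 32.6% ± 0.706 under siRNA 1 and 35.2% ± 0.136 under siRNA 2. PCGF3, of a variant PRC1, had 20.6%, 24.1% and 19.8%, with a log2 change of 0.34 (SE 0.03, edgeR adjusted p = 1.38e-05) under siRNA 1 and 0.40 (SE 0.03, adjusted p = 1.05e-05) for siRNA 1 against siRNA 2.

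Some reads may be shared with similar or overlapping genes. The pseudogene SUZ12P1 had 538 to 754 counts per library, RBBP4P1 had 128 to 241, EZH2P1 had 0 to 4 and the readthrough gene COMMD3-BMI1 had 0 to 15. Without a stated strand setting, reads of RBBP7 and of TXLNG on the opposite strand cannot be told apart where they overlap. TXLNG had 51.5 ± 2.05 CPM in control, 54.4 ± 5.74 under siRNA 1 and 60.4 ± 2.47 under siRNA 2 (SD, n = 3). Opposite RBBP4, SYNC had 1.49 to 2.38 CPM in the group means.

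Among the other subunits and inhibitors of PRC2, 6 of 7 listed genes were tested, and in the mean of both siRNAs 3 rose and 1 fell. For this and the lists that follow, 31.5% of all tested genes were called in the mean, 16.2% higher and 15.3% lower. The median log2 change was 0.127, against -0.000 over all genes. LCOR, whose locus also encodes the PRC2.1 subunit PALI1, went from 106.2 ± 2.35 CPM (SD, n = 3) to 122.3 ± 2.52 under siRNA 1 and 122.0 ± 4.51 under siRNA 2 (mean log2 0.20, SE 0.03, edgeR adjusted p = 0.000249). PHF19, a Polycomb-like protein that targets PRC2, rose by 0.17 (SE 0.03, adjusted p = 0.00215), and its relative PHF1 fell by 0.20 (SE 0.03, adjusted p = 0.000976). For PHF19 the change was 0.24 (adjusted p = 0.000752) under siRNA 2 but 0.11 and not called (adjusted p = 0.0601) under siRNA 1. The siRNAs differed by -0.13 for PHF19 (SE 0.04, adjusted p = 0.0405), so its mean averages unlike values. EPOP, an accessory subunit, rose by 0.13 (adjusted p = 0.0407), but its call was lost in 9 alternatives, including without control replicate 1 or 2, siRNA 1 replicate 1 or 3, or siRNA 2 replicate 1 or 2, with log2 changes of 0.09 to 0.14.

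Among the other canonical PRC1 genes, 3 of 11 rose and 4 fell in the mean of both siRNAs, with a median log2 change of -0.064. PHC2, a polyhomeotic protein whose SAM domain links PRC1 complexes, stood at 322.8 ± 5.28 CPM (SD, n = 3) in control, 236.1 ± 3.59 under siRNA 1 and 275.5 ± 3.04 under siRNA 2. PHC2 fell by 0.45 on the log2 scale under siRNA 1 (SE 0.03, edgeR adjusted p = 1.21e-07) and by 0.23 under siRNA 2 (SE 0.03, adjusted p = 4.17e-05). Its relative PHC1 fell by 0.33 in the mean (SE 0.08, adjusted p = 0.00495). SCML2, a Polycomb protein that associates with PRC1, differed between the siRNAs by 0.67 (SE 0.12, adjusted p = 0.00248), with 14.3 ± 2.54 CPM under siRNA 1 and 8.98 ± 0.37 under siRNA 2.

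Of 14 tested genes of variant PRC1, which lacks the CBX subunits of canonical PRC1, 5 rose and 3 fell in the mean, with a median of 0.004. KDM2B, which brings a variant PRC1 to unmethylated CpG islands, had 45.1, 47.8 and 47.3 CPM in control, 69.9, 69.9 and 66.5 with siRNA 1, and 68.5, 66.5 and 66.8 with siRNA 2. Every siRNA library lay above every control library, and the siRNA groups overlapped. KDM2B rose by 0.56 under siRNA 1 and 0.52 under siRNA 2 on the log2 scale (edgeR adjusted p = 4.65e-07 and 1.35e-06). PCGF6 rose by 0.29 (SE 0.05, adjusted p = 0.000906). E2F6, its DNA-binding partner, had 33.9 ± 0.477 CPM in control, 23.9 ± 1.3 under siRNA 1 and 32.6 ± 2.86 under siRNA 2 (SD, n = 3), and the siRNAs differed by -0.45 (SE 0.07, adjusted p = 0.000688). FBRS fell by 0.21 in the mean (SE 0.04, adjusted p = 0.00214).

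Genes that oppose Polycomb marks were also listed. Of 7 tested genes of the H2A deubiquitinase complex PR-DUB, 2 rose and 2 fell in the mean, with a median of -0.022. FOXK1 and FOXK2 are forkhead factors that bring its catalytic subunit BAP1 to DNA. FOXK1 had 91.1 ± 4.35 CPM (SD, n = 3) in control, 58.1 ± 0.454 under siRNA 1 and 95.6 ± 2.98 under siRNA 2, and the siRNAs differed by -0.72 on the log2 scale (SE 0.04, edgeR adjusted p = 2.76e-07). FOXK2 rose by 0.25 (SE 0.03, adjusted p = 7.42e-05), and MBD6 fell by 0.38 (SE 0.06, adjusted p = 0.000431). ASXL1 rose by 0.10 (adjusted p = 0.0494), a call that was lost with log2 changes of 0.08 to 0.10 without control replicate 2 or 3, without siRNA 1 replicate 1, 2 or 3, and without siRNA 2 replicate 2 or 3. It was also lost with median-of-ratios factors, library totals, no count filter, limma-voom and the replicate block.

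Of the H3K27 demethylases, KDM6A fell and KDM6B did not pass in the mean. KDM6A had 41.9 ± 2.33 CPM in control, 37.2 ± 1.02 under siRNA 1 and 31.9 ± 2.88 under siRNA 2 (SD, n = 3), with a mean log2 change of -0.28 (SE 0.06, edgeR adjusted p = 0.00216). Under siRNA 1 alone KDM6A was not called (-0.17, adjusted p = 0.071), and the siRNAs differed by 0.22 (SE 0.07, adjusted p = 0.0367). KDM6B was at 0.10 under siRNA 1 and -0.10 under siRNA 2, neither called. The siRNAs differed by 0.20 for KDM6B (SE 0.05, adjusted p = 0.0133), so its mean averages unlike values. Of the 12 trithorax genes, which encode methyltransferases of lysine 4 of histone H3 and their shared subunits, 2 rose and 2 fell, with a median of -0.041, so the share called was near that of all genes. WDR5, a shared subunit, rose by 0.23 (SE 0.04, adjusted p = 0.000536). The count of 4 called trithorax genes fell to 2 without the count filter and without control replicate 2, control replicate 3 or siRNA 2 replicate 1.

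**Figure D3:**
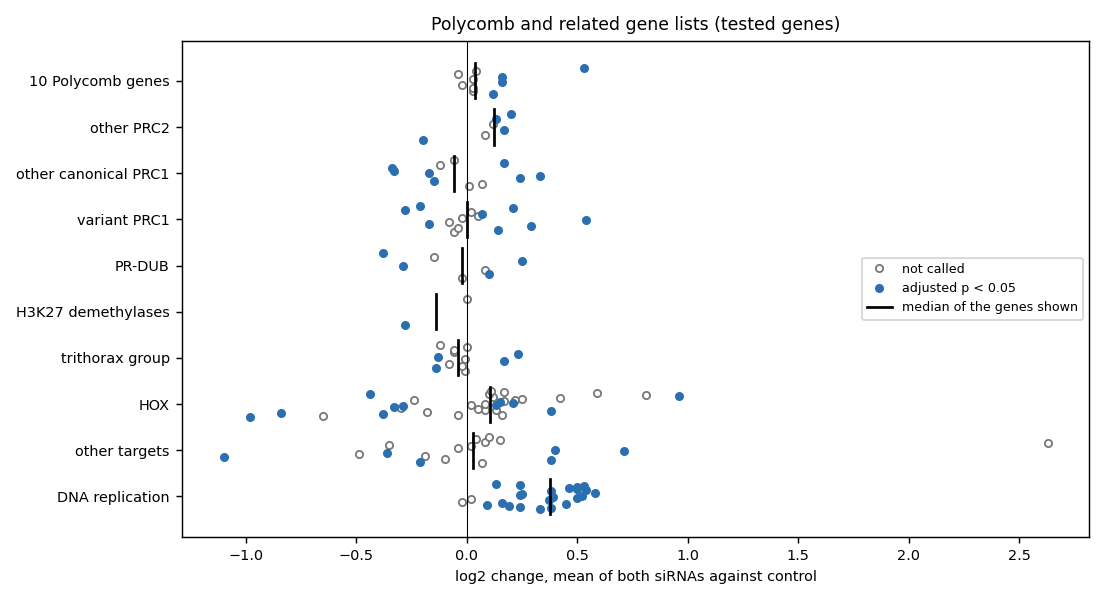
Log2 change in the mean of both siRNAs against control (x axis) for each tested gene of the Polycomb and related lists (y axis). Filled points passed edgeR's adjusted p of 0.05, and vertical bars give the list's median, which was 0.035 for the 10 Polycomb genes and 0.375 for DNA replication genes.

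HOX genes are classic Polycomb targets. Of 32 tested HOX genes, 5 rose and 6 fell in the mean of both siRNAs, with a median log2 change of 0.110. HOXA9, a posterior gene, had 58.7, 54.1 and 57.3 CPM in control, 80.6, 80.6 and 82.8 with siRNA 1, and 66.7, 67.3 and 67.2 with siRNA 2. The groups did not overlap, in the order control, siRNA 2, siRNA 1, and HOXA9 rose by 0.38 in the mean (SE 0.03, edgeR adjusted p = 2.74e-06). HOXC10 had 1.97 ± 0.278, 4.89 ± 0.213 and 3.01 ± 0.486 CPM and rose by 0.96 (SE 0.15, adjusted p = 0.000348). HOXC13 fell by 0.44 (SE 0.11, adjusted p = 0.00686).

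Beside 15.7% of all tested genes higher and 14.8% lower under siRNA 1, that siRNA gave 2 rises and 4 falls among 11 HOXA genes, 1 and 3 among 9 HOXB genes, 3 and 0 among 8 HOXC genes, and 0 and 0 among 4 HOXD genes. Under siRNA 2, beside 14.2% of all tested genes higher and 12.6% lower, there was 1 rise and 1 fall in HOXA, 1 and 2 in HOXB, and 1 and 1 in HOXC. HOXC6, with 4.59 ± 0.504 CPM (SD, n = 3) in control, 7.83 ± 0.658 under siRNA 1 and 3.79 ± 0.473 under siRNA 2, differed between the siRNAs by 1.05 on the log2 scale (SE 0.14, edgeR adjusted p = 0.000278). HOXA10 differed by 0.37 (SE 0.06, adjusted p = 0.00137), also higher under siRNA 1. HOXA6 was lower under siRNA 1 than under siRNA 2 (-0.93, SE 0.22, adjusted p = 0.0108).

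Of 18 tested genes among 26 others known as Polycomb targets in development or cancer, 3 rose and 3 fell in the mean, with a median of 0.029. FOXC1, a forkhead factor, had 54.3 ± 0.93 CPM (SD, n = 3) in control, 93.3 ± 5 under siRNA 1 and 84.6 ± 1.86 under siRNA 2, and rose by 0.71 (SE 0.04, edgeR adjusted p = 5.09e-08). KLF2, a transcription factor silenced by EZH2 in several tumours, rose by 0.61 under siRNA 1 (adjusted p = 1.07e-05) and 0.40 in the mean of both (adjusted p = 0.000109). Under siRNA 2 its change was 0.18 (adjusted p = 0.039), a call lost in 11 alternatives with log2 changes of 0.14 to 0.20, including without control replicate 2 or 3, any siRNA 1 replicate, or siRNA 2 replicate 2 or 3. The siRNAs differed by 0.42 for KLF2 (SE 0.06, adjusted p = 0.000446), so its mean also averages unlike values. CDKN1C, an inhibitor of cyclin-dependent kinases, had 19.3 ± 2.49 CPM under siRNA 1 and 12 ± 0.528 under siRNA 2, a log2 difference of 0.69 (SE 0.12, adjusted p = 0.0016). Its call in the mean of both (0.38, adjusted p = 0.0129) was lost without control replicate 1 (0.28, adjusted p = 0.069).

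EZH2 is known to be more abundant in dividing cells, and genes of the start of S phase and of DNA replication were therefore set beside the Polycomb genes. Of 24 such genes, 22 rose and 0 fell in the mean of both siRNAs, with a median log2 change of 0.375. Under siRNA 1, 15 rose and 2 fell, with a median of 0.244, and under siRNA 2, 23 rose and 0 fell, with a median of 0.468. Of all tested genes, 15.7% were higher and 14.8% lower under siRNA 1, and 14.2% higher and 12.6% lower under siRNA 2. Their summed level was 3018.4 ± 45.2 CPM (SD, n = 3) in control, 3424.4 ± 25.2 under siRNA 1 and 4209.2 ± 64.7 under siRNA 2. Between the siRNAs, 18 of these 24 genes were lower and 1 higher under siRNA 1, beside 9.83% of all tested genes lower and 8.09% higher. RRM2, a subunit of ribonucleotide reductase, went from 392.4 ± 5.46 CPM to 525.6 ± 0.908 and 605.3 ± 15.4. EZH2, RBBP4 and RBBP7, like the summed replication genes, were highest under siRNA 2, while CBX2 and JARID2 were highest under siRNA 1. The replication genes did not all move alike under siRNA 1. MCM6, a subunit of the replicative helicase, and CDC6, which loads it, were at 84.5% and 83.7% of control there, while 15 of the 24 rose. Under siRNA 2, MCM6 and CDC6 were at 134.4% and 123.1% of control. The part of the replication genes' level in the changes of the Polycomb genes was not tested.

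Genes whose pattern over the 9 libraries was most like that of EZH2 were found by the root mean square difference of log2 CPM, after centring each gene on its own mean, among 11552 genes with at least 5 CPM. They were SF1 (0.0202), SLC39A9 (0.0217), RAB4A (0.0224), XRCC5 (0.0227) and TMED8 (0.0241). The genes most like CBX2 were PKP3 (0.0304), MTAP (0.0456), RAB25 (0.0479), SIPA1L1 (0.0490) and MCOLN3 (0.05). PKP3 had log2 changes of 0.70 under siRNA 1 and 0.37 under siRNA 2, beside 0.69 and 0.37 for CBX2. That likeness follows from the choice of PKP3 by its pattern in these same libraries.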

How the data were processed

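RNA-seq gene counts of 9 HCT116 libraries, 3 per group, were used. Per the labels, the authors deposited raw counts per Ensembl gene identifier; these are whole numbers with totals that differ between libraries, and the authors normalised nothing. Of the non-zero values from 1 to 40, 28% were multiples of 4, beside 20.8% that left a remainder of 3 on division by 4. It is possible that 1 count does not stand for 1 fragment, which was not tested. The genome build was hg19, per the submitters' processing notes. Which aligner, counter, annotation and strand setting were used is not given in the sources used here.

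Symbols, loci and exon lengths came from GENCODE 29 on GRCh38 and promoter sequences from RefSeq on GRCh38.p14, so their coordinates are not those of hg19. The labels gave each library's group. The filterByExpr step kept 20932 of 61806 identifiers, and TMM factors lay between 0.985 and 1.014. A quasi-likelihood test was run in edgeR 4.0.16 (under R 4.3.3) on 1 model of all 9 libraries with a term per group, in which the common biological coefficient of variation was 0.147. Adjusted p is Benjamini-Hochberg over all 20932 genes. Levels were CPM, counts per 1000000 after TMM scaling, with SD over 3 libraries. The 95% intervals used the t distribution and the SE of the log2 change.

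The 10 genes, the other lists and the naming rule were chosen with earlier results of these data known. Named genes were the 10 genes, ORM1, up to 4 genes per list with the largest called change in the mean of both siRNAs and at least 1 CPM, and listed genes called between the siRNAs. CBX8 was named outside it, after its values were seen. For EZH2 and CBX2, the 5 genes with the most similar pattern were also named. The results of some genes are not reported here. Alternatives were DESeq2 1.42.0, limma-voom (limma 3.58.1), other scaling, no count filter, a fit of only the groups compared, the longest transcript as the length, the replicate number as a block, and each library left out in turn. Figures were drawn with matplotlib 3.10.9, and tables were made in Python 3.11.15 with numpy 2.4.6 and pandas 2.3.3.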

Additional observations from a re-analysis of the deposited data

Results flagged for a closer look

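A direct test of siRNA 1 against siRNA 2 separated the siRNAs for 4 of the 10 Polycomb genes, beside 17.9% of all tested genes. The histone-binding subunits RBBP4 and RBBP7 were lower under siRNA 1 than under siRNA 2, with log2 differences of -0.26 and -0.42. JARID2 and CBX2 were higher under siRNA 1, with log2 differences of 0.35 and 0.31. For RBBP7 the siRNAs also lay on opposite sides of control, with every siRNA 1 library below and every siRNA 2 library above all control libraries.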

How the results depend on the processing

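Over 670 repeats of the 10 genes' tests, no called gene lost its call or turned. EZH2 under siRNA 1 passed with upper-quartile scaling (0.10, edgeR adjusted p = 0.038). The 22 turns of direction were all in changes not called. SUZ12 under siRNA 1 became 0.01 with upper-quartile scaling, EED under siRNA 2 became 0.00 without the count filter, and EZH1 between the siRNAs became 0.00 with library totals. With each library left out in turn, the log2 changes under siRNA 1 ranged from -0.01 to 0.05 for EZH1, -0.05 to 0.03 for SUZ12, -0.08 to 0.01 for EED and -0.02 to 0.06 for RING1. Under siRNA 2 they ranged from -0.03 to 0.05 for EED and -0.06 to 0.02 for JARID2. In the mean of both they ranged from -0.02 to 0.07 for SUZ12 and -0.06 to 0.03 for EED. BMI1 between the siRNAs ranged from -0.02 to 0.03. The causes were not tested.

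Same-numbered libraries of different groups had correlations of -0.019 to 0.037 in their deviations from the group means. A library correlated best with its own number in 7 of 18 cases, so the numbers were not treated as pairs. With the replicate number as a block, EZH2 under siRNA 1 passed (0.09, adjusted p = 0.039), EED under siRNA 2 became 0.00, and called genes of the 10 went from 3 to 4 under siRNA 1 and stayed at 4 in the other comparisons.

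Of the trithorax list, 2 genes were called without the count filter, and 2 to 4 with a library left out. Of the markers of other cell types, 2 were called with DESeq2 and with limma-voom. ORM1 under siRNA 2 was not called without the count filter (-3.20, adjusted p = 0.054) or with DESeq2 (-3.23, adjusted p = 0.072), and its log2 change ranged from -3.88 to -2.63 with a library left out. Counts of the 10 genes and of all genes stayed within 1.5 times the values given. Levels per kilobase depend on the length used, and small differences in low genes are limited by depth.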
